A study of Homo sapiens with 53 samples.

Results

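The regions described here are TET3 peaks that were called in BPK-25-treated cells, that overlapped no TET3 peak of DMSO-treated cells, and whose summit lay on a CTCF site of DMSO-treated cells. They were selected on peak calls: the BPK-25 TET3 list, the DMSO TET3 list and the CTCF summits of the DMSO list chose them, with a limit of 100 bp between the TET3 and the CTCF summit. There were 4254 such regions, which was 48.4% of the 8791 new TET3 peaks and 31.8% of all 13360 TET3 peaks under BPK-25. In all, 65.8% of the BPK-25 TET3 peaks were new, and 46.3% had a summit within 100 bp of a DMSO CTCF summit. The 10 lists of the series held 706206 merged peaks.

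All lists came from chromatin immunoprecipitation and sequencing (ChIP-seq) of HEK293T cells, an established human embryonic kidney line, kept for 72 h in the solvent DMSO or in 30 µM BPK-25. CTCF and MBD3 were precipitated from parental cells with antibodies to the proteins, and TET1, TET2 and TET3 from derived lines with an antibody to their Flag tag. The labels do not say how the tagged lines were made, which promoter drove the tagged protein, or whether a line was 1 clone. Each target and treatment has 1 list, read from its name as a call on the pooled replicates with input as control, so no value here has a spread between replicates and no difference between treatments could be tested.

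CTCF is a zinc-finger protein that binds a long DNA motif and is found at insulators and where chromatin loops are anchored. TET3 is a dioxygenase that oxidises 5-methylcytosine, as are TET1 and TET2, and DNA methylation within the CTCF motif is known to hinder CTCF binding at many sites. MBD3 is a subunit of NuRD, a complex with nucleosome remodelling and histone deacetylase activity. BPK-25 is a small molecule reported to promote the loss of NuRD subunits. The title of the series names the role of NuRD in the chromatin environment of CTCF sites as its question.

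Genome background differed between the lists, and read depth itself is not known here because total read numbers were not used. Each list's genome background, its smallest local background, was 1.70 (DMSO) and 1.65 (BPK-25) fragments for TET3, 3.68 and 2.58 for CTCF, 3.21 and 2.57 for MBD3, 1.85 and 1.75 for TET1, and 1.25 and 1.05 for TET2. The lowest TET3 pileup called was 8 fragments in both TET3 lists. The merged lists held 14129 TET3 peaks under DMSO, 99587 and 245419 CTCF peaks under DMSO and BPK-25, 82358 and 243213 MBD3 peaks, 5951 and 447 TET1 peaks, and 1233 and 509 TET2 peaks.

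For comparison, 3 further classes were formed by the same limits. New TET3 peaks away from a DMSO CTCF summit numbered 4537. TET3 peaks kept from DMSO, with their BPK-25 summit at a CTCF summit, numbered 1938. TET3 peaks of the DMSO list that overlapped no BPK-25 TET3 peak and had their summit at a CTCF summit, called lost here, numbered 2707, which was 28.1% of the 9627 lost TET3 peaks.

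The new TET3 peaks at CTCF summits were narrow and of moderate height. Fold enrichment at the summit is the authors' ratio of fragment pileup to local background, taken here with 1 added to each. It had a median of 5.68 (quartiles 4.73 and 7.01) and ran from 1.32 to 20.0. The pileup had a median of 17 fragments (13 to 21), or 10.3 times the genome background (7.90 to 12.8). The median -log10 q was 6.95 (4.49 to 10.7), and the median width was 192 bp (174 to 224). New TET3 peaks away from CTCF had a lower median fold of 4.16 and were 212 bp wide, while the kept peaks at CTCF summits had a fold of 5.96 and were 243 bp wide. The lost peaks, measured under DMSO, had a fold of 4.45 and a width of 265 bp. Width differed between the whole TET3 lists too. The median over all TET3 peaks was 277 bp under DMSO and 213 bp under BPK-25, and the shortest peaks were 177 and 159 bp.

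The CTCF sites under the new TET3 peaks were mostly strong ones. DMSO CTCF fold enrichment at the nearest summit had a median of 93.8 (62.4 to 132.7), against 38.4 (4.82 to 104.9) at kept and 5.86 (3.50 to 31.9) at lost TET3 peaks. A CTCF fold of 10 or more was found at 3945 of the 4254 regions (92.7%), at 1211 kept peaks (62.5%) and at 1012 lost peaks (37.4%). The new TET3 peaks were thus weighted toward strong CTCF sites more than the lost ones, although both were required to sit at a CTCF summit. When only CTCF rows with a fold of 10 or more were used, the medians were 99.5 at new and 55.6 at lost peaks.

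Ranking all DMSO CTCF peaks by -log10 q showed where along that range the new TET3 peaks fell. Of all 99587 CTCF peaks, 4229 (4.25%) overlapped a new TET3 peak at their summit. In the strongest decile 2765 of 9959 CTCF peaks did, which was 27.8% (95% interval 26.9 to 28.7, exact Clopper-Pearson, as for all shares here, and covering counting error only). The ninth decile held 878 (8.82%) and the eighth 197 (1.98%). Each of the 7 weaker deciles held between 41 and 82, or 0.412% to 0.823%. The strongest decile thus carried 65.4% of these CTCF sites. The lost TET3 peaks were spread more evenly, from 1.77% of CTCF peaks in the seventh decile to 4.38% in the strongest, with 3.17% in the weakest. In each of the 7 weakest deciles more CTCF peaks overlapped a lost than a new TET3 peak. In the eighth the counts were close, at 202 and 197 with overlapping intervals, and in the 2 strongest the order was the opposite.

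**Figure D1:**
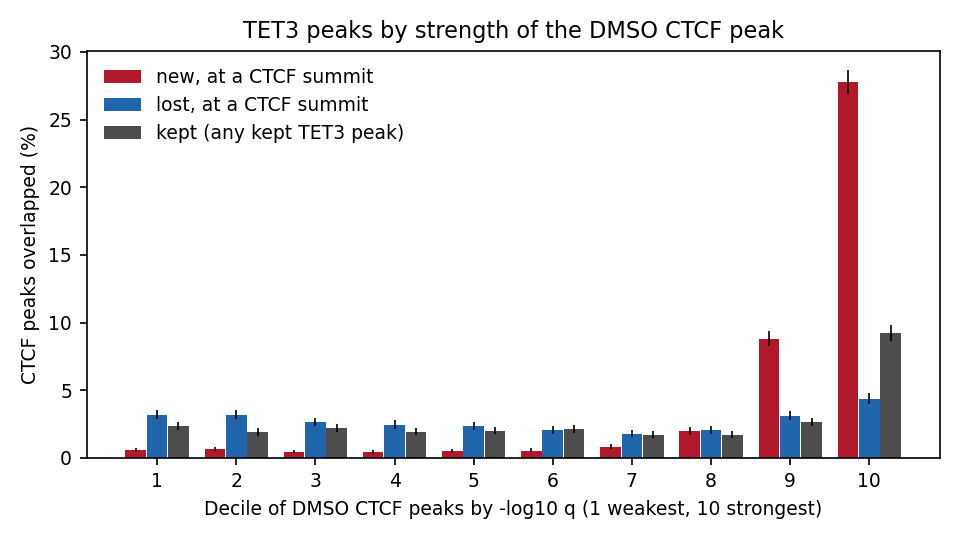
Share of DMSO CTCF peaks (y axis, percent) that overlapped a new TET3 peak at a CTCF summit, a lost TET3 peak at a CTCF summit, or any kept TET3 peak, by decile of CTCF -log10 q (x axis). Bars give the share and lines its exact 95% interval; the new peaks reach 27.8% in the strongest decile, where the lost peaks reach 4.38%.

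Within the strongest decile the share did not follow CTCF rank to its very top. New TET3 peaks lay at 35.4% (33.7 to 37.1) of the CTCF peaks ranked 2001 to 5000, at 31.5% of those ranked 1001 to 2000 and at 24.7% (22.1 to 27.5) of the first 1000. Of the 100 highest CTCF peaks 13 had a new TET3 peak (13.0%, 7.11 to 21.2), while 25 had a kept one (25%, 16.9 to 34.7). Kept peaks rose with rank, from 9.83% at ranks 2001 to 5000 to 16.6% in the first 1000. A site with a TET3 peak under DMSO could not hold a new one unless separate TET3 peaks lay within it, so these shares are not independent. Below rank 10000 the share with a new TET3 peak fell to 8.68% for ranks 10001 to 20000 and to 1.11% for ranks 20001 to 50000.

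The TET3 summits lay close to the CTCF summits, closer than the limit of 100 bp asked for. The median distance was 13 bp (quartiles 6 and 26). Of the 4254 regions, 1761 (41.4%) had the TET3 summit within 10 bp of the CTCF summit, 3189 (74.96%) within 25 bp and 3928 (92.3%) within 50 bp. The kept peaks had a median distance of 22 bp, with 77.4% within 50 bp, and the lost peaks 41 bp, with 60.5% within 50 bp. There was little lean to either side: the TET3 summit had the higher coordinate at 2215 regions, the lower at 1965 and the same at 74, with a median signed distance of 1 bp. The orientation of the CTCF motif was not used here, so side is given by coordinate alone.

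**Figure D2:**
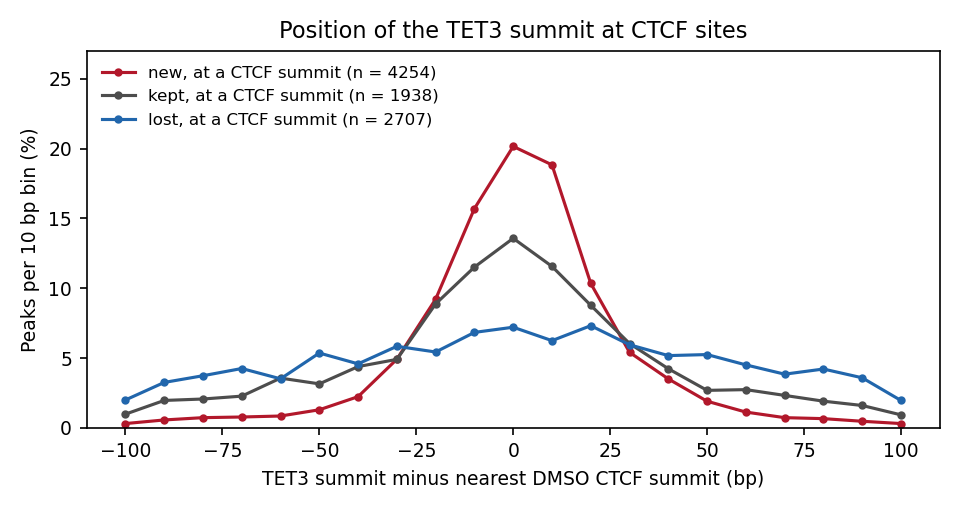
Signed distance from the nearest DMSO CTCF summit to the TET3 summit (x axis, bp; positive where TET3 has the higher coordinate) for new, kept and lost TET3 peaks, as percent of each class per 10 bp bin (y axis). The outermost bins reach only to the 100 bp limit. New peaks are concentrated at the centre, with 41.4% within 10 bp, against 26.9% of kept and 14.8% of lost peaks.

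Among the new peaks themselves, TET3 and CTCF strength rose together. Across the 4254 regions TET3 fold and DMSO CTCF fold had a Spearman correlation of 0.51 (Pearson 0.47 on log values), against 0.38 over the 1938 kept peaks and -0.11 over the 2707 lost peaks. These are descriptions across regions of pooled lists. TET3 fold was read under BPK-25 at new and kept peaks but under DMSO at lost peaks, so the last value also differs in its TET3 list. In 4 bins of equal size by rising CTCF fold the median TET3 fold was 4.59, 5.59, 6.29 and 6.81. In 4 bins by rising TET3 -log10 q the median CTCF fold was 57.5, 84.9, 104.3 and 129.8, and the median summit distance fell from 25 bp to 15, 12 and 9 bp. Stronger new TET3 peaks thus sat at stronger CTCF sites and nearer to their summits. Pileup rose over the same bins from 11 to 25 fragments, and its part in the distance was not tested.

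**Figure D3:**
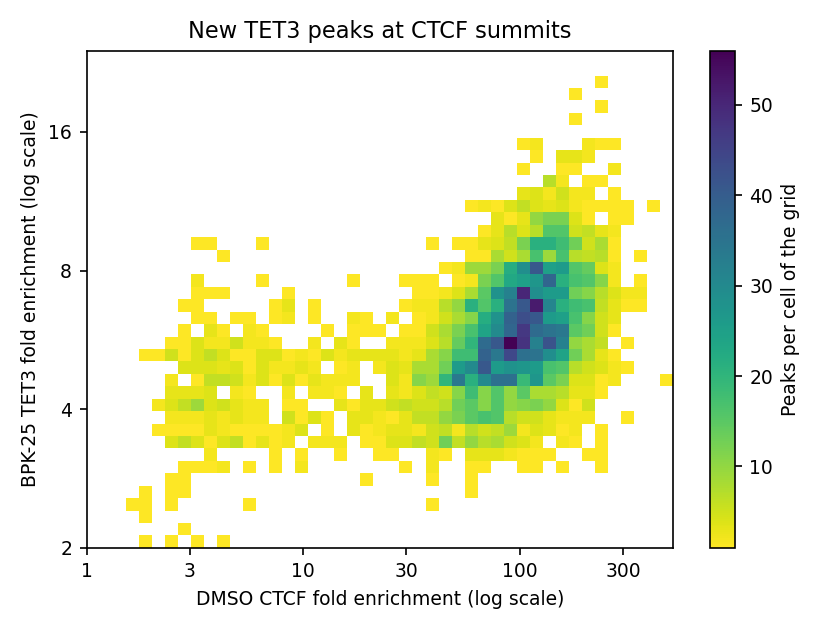
BPK-25 TET3 fold enrichment (y axis, log scale) against DMSO CTCF fold enrichment at the nearest CTCF summit (x axis, log scale) for 4246 of the 4254 new TET3 peaks at CTCF summits; colour gives the number of peaks per grid cell, and 8 peaks with a TET3 fold under 2 are not drawn. Most lie to the right, where the quartiles of CTCF fold are 62.4 and 132.7, and a thinner band lies at CTCF folds under 10.

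Most of these regions were far from the TET3 peaks of DMSO-treated cells. The nearest DMSO TET3 summit was a median of 44.3 kb away (14.2 to 116.7 kb) and never nearer than 159 bp. It lay within 1 kb at 179 regions (4.21%) and within 10 kb at 841 (19.8%). The lists give no value at a place where no peak was called, so the DMSO TET3 signal at these regions is unknown and bounded only by what the DMSO list would have called.

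That bound depends on local background, the number of fragments the caller takes as the level without enrichment around a site. At a local background like that under BPK-25, whose median here was 1.15 times the genome background, the DMSO list would have called 9 fragments (quartiles 8 and 10). The pileup under BPK-25, scaled by the genome backgrounds of both TET3 lists, was 1.86 times that (1.55 to 2.29). It reached at least 1.5 times at 3244 regions (76.3%), 2 times at 1712 (40.2%) and 3 times at 250 (5.88%).

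Local background itself differed between the treatments where both could be read. At 1625 kept TET3 peaks with summits within 100 bp DMSO cells had 1.97 times and BPK-25 cells 1.12 times the genome background, and it was lower under BPK-25 at 1423 of them (87.6%). At the same peaks the median pileup over genome background was 11.8 (DMSO) and 10.9 (BPK-25), a median ratio of 0.916, while the fold enrichment was 4.62 and 6.05. So median fold at these kept peaks was higher under BPK-25 although median pileup was not. At the 1021 kept peaks with a CTCF fold of 10 or more the local background was 1.97 and 1.15 times, and the pileup 10.6 and 11.6 times. With local background at the new peaks raised by the 1.52-fold seen at kept peaks, the DMSO list would have needed 11 fragments (10 to 13). The scaled pileup was then 1.47 times that (1.22 to 1.82). It reached the needed pileup at 3850 regions (90.5%) and 1.5 times that pileup at 2023 (47.6%), whose median CTCF fold was 117.6. The remaining 404 regions could have gone uncalled under DMSO with the same scaled pileup at that background. That number holds for the median raise only. The ratio of BPK-25 to DMSO local background at kept peaks had a median of 0.656 (0.49 to 0.84). These peaks also had to be called under DMSO. A larger raise at a region would have asked for more pileup there. The part of local background in the calls was not tested.

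Under BPK-25, CTCF was called at a share of these regions somewhat above that of all BPK-25 TET3 peaks. Where called, its height was far lower than under DMSO. A BPK-25 CTCF peak overlapped 1999 of the 4254 regions (47.0%, 45.5 to 48.5), against 42.5% of all BPK-25 TET3 peaks. Among the other classes the share was 64.9% of kept, 73.8% of lost and 29.4% of new peaks away from CTCF. At all 4254 regions the DMSO CTCF pileup was a median of 232.5 times the genome background (142.1 to 345.4). At the 1717 with a BPK-25 CTCF summit within 100 bp, it was 349.3 times with DMSO and 10.5 times with BPK-25. The median ratio there was 0.0308 (0.0248 to 0.0390), and the BPK-25 value was the lower at 1655 of the 1717. The fold was 126.4 under DMSO and 4.43 under BPK-25. Lower CTCF values under BPK-25 were not particular to these regions. Over the whole CTCF lists the median fold was 11.3 under DMSO and 3.71 under BPK-25. Median CTCF pileup at kept TET3 peaks was 105 times (all 1938, DMSO) and 11.25 times (886 with a summit, BPK-25). At lost peaks it was 14.1 times (all 2707) and 10.9 times (1382 with a summit). At kept and lost peaks the DMSO and BPK-25 values thus cover different sets of regions. No CTCF ratio at the same regions was computed there, so the size of the difference cannot be set beside that at the new peaks. Whether the lower value comes from less CTCF on the DNA or from the precipitation of these libraries cannot be told apart in these lists. Regions without a BPK-25 CTCF peak have no value under BPK-25.

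The share with a BPK-25 CTCF peak did not rise evenly with the strength of the site. Over deciles of CTCF -log10 q, taken per CTCF site with a new TET3 peak, it was 66.1% in the weakest, 46.3% in the seventh, 24.9% in the eighth, 18.2% in the ninth and 64.2% in the strongest. Per region it was 31.7% and 27.8% in the 2 lower of 4 bins of DMSO CTCF fold, 50.5% in the next and 78.0% in the highest. It was 32.4%, 39.2%, 48.9% and 67.4% over 4 bins of rising TET3 -log10 q. Where both were called, BPK-25 TET3 and BPK-25 CTCF pileups had a Spearman correlation of 0.35 across the 1717 regions, as a description.

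MBD3, the NuRD subunit, overlapped these regions at shares slightly above those of all BPK-25 TET3 peaks. A DMSO MBD3 peak was present at 2969 of the regions (69.8%, 68.4 to 71.2), against 65.7% of all BPK-25 TET3 peaks. A BPK-25 MBD3 peak was present at 2157 of the regions (50.7%, 49.2 to 52.2), against 44.8%. Kept peaks had 92.1% and 69.3%, lost peaks 88.8% and 75.8%, and new peaks away from CTCF 38.8% and 30.2%. The new peaks at CTCF summits were thus below both other classes at CTCF summits and above the new peaks elsewhere. Their MBD3 summits were close, with a median distance of 17 bp under DMSO over 2812 regions and 21 bp under BPK-25 over 1906. At the 1691 regions with both MBD3 summits median pileup over genome background was 14.3 (DMSO) and 11.3 (BPK-25), with a median ratio of 0.793 (0.637 to 0.967). It was higher under BPK-25 at 368 and lower at 1323. Across the 4 bins of CTCF fold the DMSO MBD3 share was 52.8%, 53.2%, 77.9% and 95.3%.

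**Figure D4:**
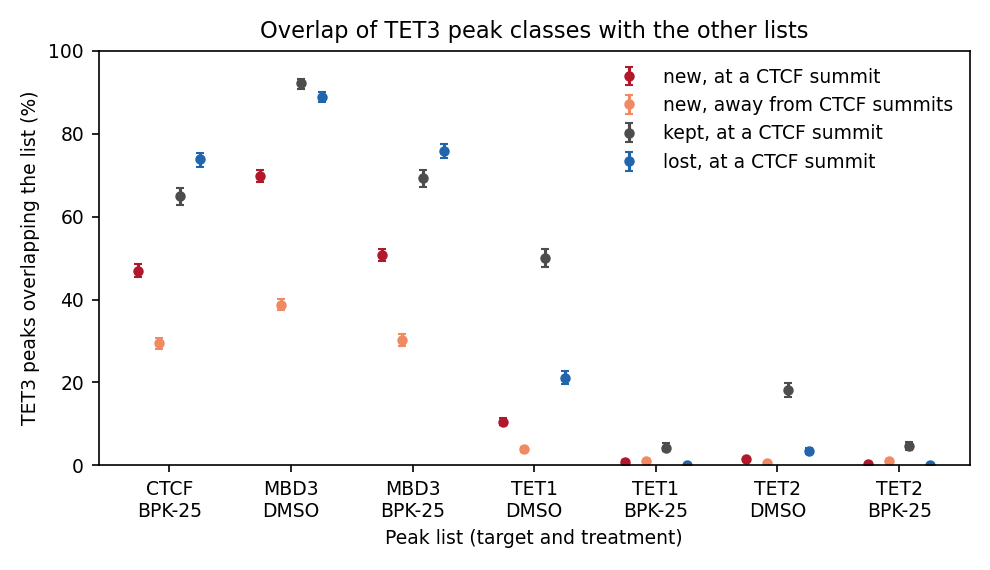
Share of new TET3 peaks at CTCF summits, new TET3 peaks away from CTCF summits, kept and lost TET3 peaks at CTCF summits (y axis, percent) that overlapped a peak of each of 7 other lists (x axis). Points give the share and lines its exact 95% interval; the new peaks at CTCF summits lie between the new peaks elsewhere and the kept and lost peaks in the CTCF, MBD3 and DMSO TET1 lists.

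All of BPK-25 CTCF, DMSO MBD3 and BPK-25 MBD3 were present at 1648 of the regions (38.7%, against 32.0% of all BPK-25 TET3 peaks), with a median CTCF fold of 126.9. None of them was present at 1032 (24.3%, against 25.3%), with a median CTCF fold of 67.1. DMSO MBD3 without the other lists was present at 828 (19.5%, against 24.3%), and both MBD3 lists without BPK-25 CTCF at 309 (7.26%, against 5.73%). The other 4 combinations held 53 to 184 regions each. Of the 1999 regions with BPK-25 CTCF, 1762 (88.1%) also had BPK-25 MBD3, close to the 87.0% of all BPK-25 TET3 peaks with BPK-25 CTCF. Of all BPK-25 CTCF peaks, 69.0% overlapped BPK-25 MBD3. Median TET3 fold differed less between the combinations than CTCF fold, at 6.18 where all were present and 5.21 where none was.

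**Figure D5:**
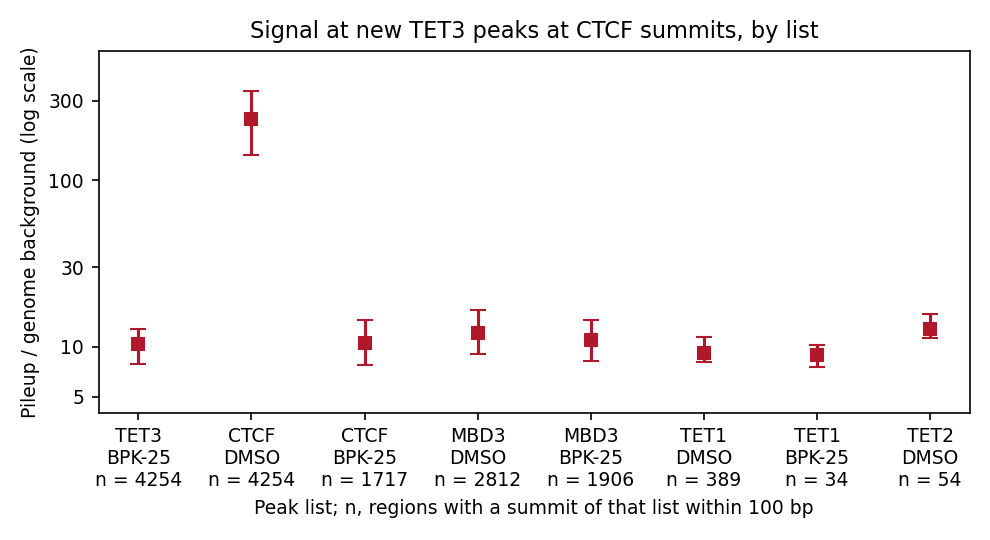
Pileup over the genome background of each list (y axis, log scale; square, median; lines, quartiles over regions) at new TET3 peaks at CTCF summits, for regions with a summit of that list within 100 bp (x axis, with their number). DMSO CTCF stands at 232.5 times; the other lists have medians between 8.85 and 12.8 times, and only called regions enter each. BPK-25 TET2, with 10 such regions, is not drawn.

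CTCF sites with a new TET3 peak were next set beside CTCF sites of the same strength that had no TET3 peak. Sites with a new TET3 peak were not left out where they also held another TET3 peak. In the strongest CTCF decile, 2765 sites with a new TET3 peak and 5569 with no TET3 peak in either list had median CTCF folds of 119.8 and 119.7. A BPK-25 CTCF peak was present at 64.2% (62.3 to 66.0) of the first and 71.1% (69.9 to 72.3) of the second, and a BPK-25 MBD3 peak at 68.0% and 73.8%. The DMSO MBD3 shares were 82.6% (81.1 to 84.0) and 81.4% (80.3 to 82.4), with overlapping intervals. In the ninth decile, 878 and 8258 sites had BPK-25 CTCF shares of 18.2% (15.7 to 20.9) and 28.5% (27.6 to 29.5) and BPK-25 MBD3 shares of 20.2% and 31.0%. The DMSO MBD3 shares in the ninth decile were 38.0% (34.8 to 41.4) and 36.0% (34.9 to 37.0). In the 8 weaker deciles, where sites with a new TET3 peak were few, the order for BPK-25 CTCF was the opposite: 24.9% (19.0 to 31.5) against 21.4% in the eighth, 46.3% to 65.9% against 23.5% to 41.4% in the second to the seventh, and 66.1% against 65.0% in the weakest. The intervals overlapped in the eighth and the weakest decile and were apart in the second to the seventh. DMSO MBD3 was likewise at 39.6% (32.7 to 46.8) against 20.8% in the eighth decile, 58.5% against 18.0% in the seventh and 83.0% against 18.9% in the sixth. Over all deciles together BPK-25 CTCF was at 52.1% of the 4229 sites with a new TET3 peak and at 34.9% of the 87019 with no TET3 peak, which differ in CTCF strength. The intervals cover counting error only, and no test of these differences was possible with 1 list each.

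TET1, the other TET protein with an appreciable DMSO list, overlapped 449 of the regions under DMSO (10.6%), which was 7.55% of that list, against 19.6% of all BPK-25 TET3 peaks. Kept peaks had 50%, lost peaks 21.1% and new peaks away from CTCF 3.84%. Within the strongest CTCF decile the DMSO TET1 share was 11.5% (10.3 to 12.8) at sites with a new TET3 peak and 4.58% (4.05 to 5.16) at sites with no TET3 peak, and in the ninth 9.23% (7.39 to 11.3) and 1.88% (1.60 to 2.19). The DMSO TET1 fold at 389 regions with a summit within 100 bp had a median of 4.08. So in these 2 deciles CTCF sites with a new TET3 peak carried a DMSO TET1 peak more often than CTCF sites of like strength without TET3. The counts with a new TET3 peak were 318 and 81 CTCF sites.

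Under BPK-25 few of these regions had TET1 or TET2, whose BPK-25 lists were short. BPK-25 TET1 overlapped 36 (0.846%, against 2.63% of all BPK-25 TET3 peaks), which was 8.05% of the 447 TET1 peaks. DMSO TET2 overlapped 60 (1.41%, against 6.18%), which was 4.87% of that list, and BPK-25 TET2 overlapped 11 (0.259%, against 2.78%), which was 2.16% of it. A TET1 or TET2 peak of any list was present at 519 regions (12.2%, against 21.3%), of which 443 had TET1 under DMSO and not under BPK-25, 30 under BPK-25 only and 6 under both. A BPK-25 TET1 or TET2 peak was present at 45 regions (1.06%, against 3.59%), and the 447 and 509 peaks of those lists set a ceiling on that number. These proteins were precipitated from other tagged lines, and an absent call says only that the pileup stayed under what each list called.

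None of the 7 lists other than TET3 and DMSO CTCF was present at 952 regions (22.4%), a share near the 23.2% of all BPK-25 TET3 peaks. Their median TET3 fold was 5.19 and their median DMSO CTCF fold 67.4. At these places the deposited lists show CTCF alone under DMSO and TET3 alone under BPK-25.

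The highest new TET3 peaks give the pattern region by region. Positions are hg19, and genes near them were not looked up because no annotation of that build was used here. Folds of the other lists are those of the peak that overlaps the region. At chr17:78549205-78549514 the TET3 fold was 20.0, with a pileup of 60 fragments and a -log10 q of 60.6, and its summit lay 3 bp from a CTCF summit of fold 236.3. BPK-25 CTCF had a fold of 8.27 there, and MBD3 12.2 under DMSO and 10.5 under BPK-25. At chr10:73808343-73808580 the TET3 fold was 19.7 at a DMSO CTCF fold of 178.4, with no BPK-25 CTCF peak and MBD3 folds of 7.31 and 4.79. At chr9:135897773-135898027 the TET3 fold was 18.6, the DMSO CTCF fold 227.9 and the BPK-25 CTCF fold 5.00. At all 3 BPK-25 CTCF was far below DMSO CTCF or not called, although 8.27 and 5.00 are above the BPK-25 CTCF median of 4.43 over these regions.

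The region of highest -log10 q, 157.4, was of another kind. At chr1:236260413-236260695 the pileup was 274 fragments on a local background of 17.8 times the genome background, so the TET3 fold was 9.11. The DMSO CTCF fold was only 3.42 there and the BPK-25 CTCF fold 7.70, with MBD3 folds of 7.11 and 7.48. The other 9 of the 10 highest regions had local backgrounds of at most 2.85 times and DMSO CTCF folds of 106.2 or more. One of them, chr17:18935693-18936051, lay 0.890 kb from a DMSO TET3 summit, the nearest of the 10.

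Of the regions with no BPK-25 CTCF and no MBD3 peak, the highest was chr17:35730554-35730765, with a TET3 fold of 9.64, a pileup of 33 fragments and a DMSO CTCF fold of 134.9 at 3 bp. The next was chr12:31556106-31556325, with a TET3 fold of 10.96 and a DMSO CTCF fold of 89.1 at 5 bp. The 5 highest of this kind had TET3 folds from 9.37 to 10.96 and summits within 17 bp of CTCF. None of these 5 overlapped a TET1 or TET2 peak, which only 519 of all 4254 regions did.

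Among the regions with a BPK-25 TET1 or TET2 peak, the highest was chr10:65801003-65801283, where TET3 had a fold of 16.6 and TET1 6.97 under DMSO and 6.74 under BPK-25. It lay 410.5 kb from the nearest DMSO TET3 summit. At chr6:53036752-53036970 the TET3 fold was 15.4, the BPK-25 TET1 fold 5.41, with no DMSO TET1 peak, and the DMSO CTCF fold 259.6. The 5 regions of highest CTCF fold had TET3 folds of 4.65 to 11.3, of which 4 were above the median of 5.68. The highest CTCF fold, 463.3, was at chr17:79075479-79075705, where TET3 had the lowest of these 5 values, with the summits 63 bp apart. The highest of the 5 TET3 values was at chr7:1032879-1033068.

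At the limit of the rule, the values just inside and just outside overlapped. The 3 nearest inside lay at 100 bp, had TET3 folds of 4.03 to 4.91 and DMSO CTCF folds of 3.71 to 29.2. The 3 nearest outside lay at most 102 bp away and had TET3 folds of 3.69 to 5.00 and DMSO CTCF folds of 3.04 to 180.9. All 6 were weaker in TET3 than the median of the new peaks at CTCF summits.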

How the data were processed

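HEK293T chromatin was immunoprecipitated and sequenced for CTCF and MBD3 (parental cells) and for the Flag tag of TET1, TET2 or TET3 (derived lines), after 72 h of DMSO or of BPK-25 at 30 µM. There are 53 samples in 18 groups: 29 immunoprecipitates and 24 inputs. TET2 under DMSO has 2 labelled replicates, though its list is named for 3; all other immunoprecipitate groups have 3. From their names, the 10 lists were read as calls on pooled replicates with input as control. The submitters' processing notes name MACS2 2.1.2, Bowtie2 2.3.4, bedtools 2.25.0, SAMtools 1.9, FastQC 0.11.7 and the build hg19; roles and settings: not given in the sources used here. The authors' peak caller wrote a fold enrichment (a ratio), a -log10 p-value and a -log10 q-value at every summit, and the deposited offset places the summit within its interval.

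Rows that overlapped or touched were merged, keeping the summit of highest -log10 q. An overlap meant 1 shared bp or more, and summits were matched within 100 bp. Pileup n and local background were solved from the fold, taken as (n + 1) / (background + 1), and the Poisson -log10 p. Under a pileup of 200, 100% of the solved pileups were whole to 0.02 in every list, and the solution was tested on simulated data. Shares carry exact Clopper-Pearson 95% intervals. CTCF peaks were split into deciles by -log10 q. Tools were Python 3.11.15, numpy 2.4.6, scipy 1.17.1 and pandas 2.3.3. Total read numbers were not used here, and neither were gene names or sequences, since the reference tables are of another build than hg19.

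Regions were named by a rule among 4232 regions on chromosomes 1 to 22 and X with local background under 20 times the genome background: the 10 of highest -log10 q, the 5 highest without BPK-25 CTCF and MBD3, the 5 highest with BPK-25 TET1 or TET2, the 5 of highest CTCF fold, 3 on each side of the 100 bp limit, and the 3 densest groups within 50 kb. The regions, classes and measures were chosen with earlier results of these data known. Alternatives were other distance, q, fold, merging and pileup limits. Raising local background was an alternative chosen after seeing the data.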

Additional observations from a re-analysis of the deposited data

How the results depend on the processing

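The number of new TET3 peaks at CTCF summits was 4254. It lay between 3052 and 4553 under limits of 50 or 200 bp, a -log10 q of at least 5, no DMSO TET3 peak within 1000 bp, a CTCF fold of at least 10, chromosomes 1 to 22 and X with low local background, merging within 500 bp, and local background raised as at kept peaks. It was 2544 where the pileup had to reach 2 times the lowest called under DMSO, an alternative that by construction keeps the tallest peaks. The median TET3 fold was 5.87 within 50 bp, 6.43 with the q limit, 5.86 with the CTCF fold limit and 5.99 (5.985) with raised background. The median CTCF fold was 97.9 within 50 bp, 90.1 within 200 bp, 107.7 with the q limit, 99.5 (99.45) with the CTCF fold limit and 99.5 (99.49) with raised background. The median summit distance was 12 bp within 50 bp, 15 bp within 200 bp, 11 bp with the q limit, and 12 bp with the CTCF fold limit or raised background. With the q limit 52.4% overlapped BPK-25 CTCF, 75.3% DMSO MBD3, 56.6% (56.55) BPK-25 MBD3 and 13.4% any TET1 or TET2 list. Asking for summits within 100 bp in place of overlap gave 40.4%, 66.1%, 44.8% and 10.8%. With raised background DMSO MBD3 was at 71.2% and BPK-25 MBD3 at 52.2%. Some of these shifts follow from the limits themselves. A CTCF fold limit removes low CTCF folds, a q limit removes weak TET3 peaks, and a distance limit sets the range of distance. The limit of 200 bp widened the choice of regions, and the other limits narrowed it. Other causes of the shifts were not tested. The number of lost TET3 peaks at CTCF summits moved more, from 2707 to 1637 within 50 bp, 4196 within 200 bp, 1016 with the q limit and 1012 with the CTCF fold limit. No replicate could be left out and no paired analysis was possible because each list pools its replicates. At these regions the DMSO list would have called a median of 9 fragments, or 11 with raised background, so DMSO TET3 signal under that was not detectable.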

Other observations

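The share of strong CTCF sites with a new TET3 peak differed between chromosomes. Over the 2 strongest deciles, 3632 of 19796 CTCF sites had one (18.4%). The share was highest on chromosome 6, at 23.1% (20.5 to 25.8, exact 95% interval for counting error), and lowest on chromosome X, at 11.9% (9.56 to 14.5). Neither stood apart from all others. The interval of chromosome 6 overlapped that of chromosome 13 (22.2%, 18.1 to 26.8), and that of chromosome X overlapped that of chromosome 18 (14.3%, 10.6 to 18.7). Chromosomes 3 and 16 had 13.4% and 13.5%. The median CTCF fold of these sites was 78.7 on chromosome 6 and 74.2 on chromosome X, against 82.7 on chromosome 3 and 92.5 on chromosome 16. Copy number and mappability of the chromosomes were not used here.

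Most new TET3 peaks at CTCF summits had no other within 50 kb, a share not computed for other TET3 peaks or for CTCF sites. Of the 4232 regions on chromosomes 1 to 22 and X with low local background, 2971 were single when neighbours were joined within 50 kb, and 1261 (29.8%) fell in 570 groups, the largest of 6. The 3 densest groups differed in kind. In the order given below, their stretches held 33, 15 and 16 CTCF sites, of which 10, 7 and 7 were in the 2 strongest deciles. At chrX:114970990-115001207, 6 regions had TET3 folds of 1.903 to 2.48 and DMSO CTCF folds of 1.73 to 2.46, on TET3 local backgrounds of 12.5 to 17.3 times the genome background, and all 6 overlapped BPK-25 CTCF and both MBD3 lists. At chr19:50602248-50635309, 6 regions had TET3 folds of 2.44 to 6.47 and CTCF folds of 5.74 to 15.9, on local backgrounds of 2.41 to 9.86 times. None of those 6 overlapped BPK-25 CTCF, and 4 overlapped DMSO MBD3. At chr9:139898821-139962453, 5 regions had TET3 folds of 5.42 to 9.01 and CTCF folds of 81.5 to 176.4, on local backgrounds of 1.04 to 1.75 times, and all 5 overlapped BPK-25 CTCF and DMSO MBD3.

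The few regions at weak CTCF sites looked different in the other lists from those in the eighth and ninth deciles. In the weakest CTCF decile 56 sites had a new TET3 peak, with 66.1% (52.2 to 78.2) overlapping BPK-25 CTCF and 76.8% (63.6 to 87.0) DMSO MBD3. At the 8952 sites of that decile without any TET3 peak the shares were 65.0% and 50.9%. DMSO TET1 was present at 6 of the 56 (10.7%) and at 0.670% of the 8952.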
